A study of Mus musculus with 6 samples.

Results

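IL-1 family cytokines and the proteins that block them were followed in colonic lamina propria (LP) MΦs (macrophages) of mice with and without the IL10 receptor β chain. The 7 genes were taken by symbol from the deposited table of 14097 genes: the agonists *Il1a*, *Il1b* and *Il18*, the receptor antagonist *Il1rn*, the decoys *Il1r2* and *Il18bp*, and the co-receptor *Il1rap*. All 7 were among the 11067 genes that reached 50 normalized counts (reads divided by the size factor of the library) in at least 1 library. MΦs were sorted as CD45+CD11b+CD11c-intermediate CD103-CD64+Ly6C-MHCII+ cells from untreated 129SvEv mice that lacked *Il10rb* (*Il10rb-/-*) or carried 1 intact and 1 deleted allele (*Il10rb+/-*, the controls), at 1, 3 and 12 weeks of age, and polyadenylated RNA was sequenced. The deletion is in the germ line, so every cell type of the mouse carried it, and the controls were themselves heterozygous. The study saw inflamed colons by histology in *Il10rb-/-* mice, and not in littermate controls, by 3 weeks of age. At 3 and 12 weeks a lack of the receptor in MΦs thus cannot be told apart from the inflamed colon around them. Each of the 6 groups was 1 library, from 1 mouse at 3 and 12 weeks and from a pool at 1 week, of 3 to 5 mice by the labels and of a narrower number by the study's figure legend. No group had a replicate library, so no difference at a single age could be set against the spread between mice.

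IL-1α and IL-1β signal through a receptor made of IL1R1 and the co-receptor IL1RAP, and IL-18 through IL18R1 and IL18RAP; both routes run through MYD88 and IRAK kinases to NF-κB. IL-1β and IL-18 are made as inactive precursors that caspase-1 cleaves in inflammasomes, whereas the IL-1α precursor is already active. Other proteins of the family limit the signal. IL1RN occupies IL1R1 without engaging the co-receptor, IL1R2 binds IL-1 but has no signalling domain, and IL18BP captures IL-18 in solution. In the gut, activated myeloid cells are the main source of IL-1β, and epithelial cells are a well-known source of IL-18.

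Between 6700337 and 40754971 reads per library fell on the listed genes, fewest in the 3-week *Il10rb+/-* and most in the 12-week *Il10rb+/-* library. The targeted gene *Il10rb* had 1231, 386 and 2341 reads in the *Il10rb+/-* libraries at 1, 3 and 12 weeks, and 8, 28 and 43 in the *Il10rb-/-* libraries, in keeping with each label. The macrophage gene *Fcgr1*, which encodes the sorted antigen CD64, was detected in every library. The 12-week libraries stood apart, each in its own markers. In the 12-week *Il10rb-/-* library the 10 macrophage markers summed to 117759 normalized counts, against 246286 to 297166 in the other 5 libraries. Of the 2 genes for the gated-out Ly6C antigen, *Ly6c2* was highest in this library (2611 normalized counts, at most 285 elsewhere) and *Ly6c1* in the 12-week *Il10rb+/-* library (585, and 116 in the 12-week *Il10rb-/-* library). Its 10 neutrophil markers summed to 14014 normalized counts, against 2009 to 4361 elsewhere, and its 8 dendritic cell markers to 40057 against 1811 to 11436, of which *Ccr7* alone made up 38707. The dendritic cell markers *Flt3*, *Zbtb46*, *Xcr1* and *Itgae* were also highest in this library. *Batf3* was lowest in it (181 normalized counts, 331 to 522 elsewhere), and *Cd209a* (47.1) and *Clec9a* (3.18) were not highest in it. Of the neutrophil sum *Csf3r* alone made up 6944, and it had 1414 to 2120 normalized counts elsewhere. The neutrophil gene *Ngp* had 0 reads in the other 5 libraries and 282 in this one, and *Ly6g* had 25 reads there and at most 1 elsewhere. *Retnlg* was close in the 12-week libraries (471 in *Il10rb-/-* and 346 in *Il10rb+/-*). *Mmp9* went the other way, with 416 in the 12-week *Il10rb-/-* library and 1090 in the 12-week *Il10rb+/-* library. In the 12-week *Il10rb+/-* library, the control of every 12-week ratio, the 6 B and plasma cell markers in the table summed to 17550 normalized counts, of which *Jchain* made up 13324, against 742 to 2297 elsewhere. The 8 monocyte markers summed to 5736 normalized counts in the 1-week *Il10rb+/-* library, 14057 in the 1-week *Il10rb-/-* library and 28701 to 41723 in the other 4, of which the 12-week *Il10rb-/-* library had 37073. The part of these other cells in the values below was not tested. In sorted bulk RNA, fewer cells of a type and less RNA per cell cannot be told apart.

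The promoters of 4 of the genes are shown because these genes differ in the comparisons below: *Il1b* is the most abundant agonist, *Il1rn* had the smallest p in the genotype test, *Il1r2* had the profile nearest to that of *Il1b*, and *Il18bp* was the only one not higher at 12 weeks than at 1 week in controls. Each is the 250 bases before the RefSeq start of transcription in GRCm38.p6, written 5′ to 3′ on the gene's own strand. Capitals mark matches to 3 of the 4 short motifs searched on both strands.
Il1b, chr2:129371140-129371389, minus strand: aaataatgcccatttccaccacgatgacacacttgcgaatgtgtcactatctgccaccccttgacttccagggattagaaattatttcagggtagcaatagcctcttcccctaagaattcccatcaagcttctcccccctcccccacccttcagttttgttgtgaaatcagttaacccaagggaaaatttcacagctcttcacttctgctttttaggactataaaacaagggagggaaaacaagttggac
Il1rn, chr2:24345121-24345370, plus strand: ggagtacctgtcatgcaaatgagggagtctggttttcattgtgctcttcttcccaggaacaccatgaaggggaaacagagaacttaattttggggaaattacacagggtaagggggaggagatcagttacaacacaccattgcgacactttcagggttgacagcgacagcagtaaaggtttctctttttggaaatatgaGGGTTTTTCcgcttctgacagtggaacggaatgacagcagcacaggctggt
Il1r2, chr1:40085843-40086092, plus strand: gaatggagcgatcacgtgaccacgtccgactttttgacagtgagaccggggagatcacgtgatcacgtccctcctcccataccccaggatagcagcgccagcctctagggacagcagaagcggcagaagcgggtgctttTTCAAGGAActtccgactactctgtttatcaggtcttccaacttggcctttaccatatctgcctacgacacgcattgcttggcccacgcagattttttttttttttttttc
Il18bp, chr7:102018233-102018482, minus strand: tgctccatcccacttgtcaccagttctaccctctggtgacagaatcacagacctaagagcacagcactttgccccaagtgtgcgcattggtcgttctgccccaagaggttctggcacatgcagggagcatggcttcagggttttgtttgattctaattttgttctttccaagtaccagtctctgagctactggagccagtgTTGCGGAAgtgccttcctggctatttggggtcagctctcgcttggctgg
The *Il1rn* promoter shown, that of the most downstream of 3 RefSeq starts, held 1 match to the NF-κB-like letters GGGNNTTTC, beginning 51 bases before the start. The *Il1r2* promoter held 1 match to the STAT-like letters TTCNNNGAA at 111 bases, and the *Il18bp* promoter 1 match to the C/EBP-like letters TTGCNNAA at 49 bases. The *Il1b* window held none of them, nor did the windows of *Il1a*, *Il18*, *Il1rap* and the other two *Il1rn* starts, and the PU.1-like letters GAGGAAGT were in no window of the 7 genes. Among 32851 mouse promoter windows of the same length, 3.72% held GGGNNTTTC, 7.02% TTCNNNGAA, 9.56% TTGCNNAA and 2.44% GAGGAAGT. Such a match describes the letters only.

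*Il1b* was the most abundant of the 7 transcripts in every library, also per kb of exon, and was higher in *Il10rb-/-* MΦs at every age. *Il1a* differed more between the genotypes at 3 and 12 weeks. *Il1b* (ENSMUSG00000027398, chromosome 2 from 129364570 to 129371139, minus strand) encodes the precursor of secreted IL-1β. It had 44268 normalized counts in the *Il10rb+/-* library at 1 week, 77011 at 3 weeks and 159466 at 12 weeks, and 66014, 122372 and 556585 in the *Il10rb-/-* libraries. The level was thus higher at each successive age in both genotypes and higher in *Il10rb-/-* MΦs at each age. *Il1b* took 0.299% of the reads of the 1-week *Il10rb+/-* library, where it ranked 28 among 14097 genes, and 2.48% of the reads of the 12-week *Il10rb-/-* library, where it ranked 2. The log2 ratio of *Il10rb-/-* over *Il10rb+/-* was 0.58 at 1 week (95% counting interval 0.56 to 0.60), 0.67 at 3 weeks (0.65 to 0.69) and 1.80 at 12 weeks (1.80 to 1.81). These exact intervals come from the reads of the pair of libraries and cover counting error only. *Il1b* shares 25 exon bases with the antisense gene *Il1bos*.

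*Il1a* (ENSMUSG00000027399, chromosome 2 from 129299610 to 129309972, minus strand) encodes IL-1α, an alarmin that acts when dying cells release it or from the cell surface. Its normalized counts were 8488, 2504 and 17825 in *Il10rb+/-* MΦs at 1, 3 and 12 weeks and 10108, 10746 and 95237 in *Il10rb-/-* MΦs. It spanned the widest range of the 7 genes, 38.0-fold from the lowest to the highest library, and it alone had its lowest value in the 3-week control. In *Il10rb+/-* MΦs the 3-week library was 3.39-fold below the 1-week library and the 12-week library 7.12-fold above the 3-week library. In *Il10rb-/-* MΦs the 3-week library was only 1.06-fold above the 1-week library, and the 12-week library 8.86-fold above the 3-week library. The log2 genotype ratio was therefore 0.25 (interval 0.21 to 0.30) at 1 week, 2.10 (2.01 to 2.19) at 3 weeks and 2.42 (2.40 to 2.43) at 12 weeks. The 3-week control value rests on 1029 reads in the shallowest library, and the age ratios of *Il10rb+/-* and the genotype ratio at 3 weeks share it. Exons of *Il1a* share 222 bases with *Gm14023* on the opposite strand, and the strand setting of the counting is not given in the sources used here, so reads of the pair cannot be told apart there.

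*Il18* (ENSMUSG00000039217, chromosome 9 from 50554827 to 50581840, plus strand) encodes the IL-18 precursor and was far lower, also per kb of exon. Its normalized counts were 282, 399 and 560 in *Il10rb+/-* MΦs at 1, 3 and 12 weeks and 350, 391 and 1312 in *Il10rb-/-* MΦs. The genotypes lay close together at the first pair of ages and apart at 12 weeks, with log2 ratios of 0.32 (interval 0.06 to 0.57), -0.03 (-0.29 to 0.24) and 1.23 (1.12 to 1.33). At 3 weeks, with 164 and 445 reads, this depth showed no detectable difference. The 11 epithelial cell markers in the table summed to 184 normalized counts in the 1-week *Il10rb+/-* library and 2350 in the 12-week *Il10rb-/-* library. These are the lowest and highest sums, and the libraries with the lowest and highest *Il18*. Between them the order differed from that of *Il18*. The sums were 1640 and 1037 in the 3- and 12-week *Il10rb+/-* libraries, and 1015 and 801 in the 1- and 3-week *Il10rb-/-* libraries. The part of epithelial cells in the *Il18* values was not tested.

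**Figure D1:**
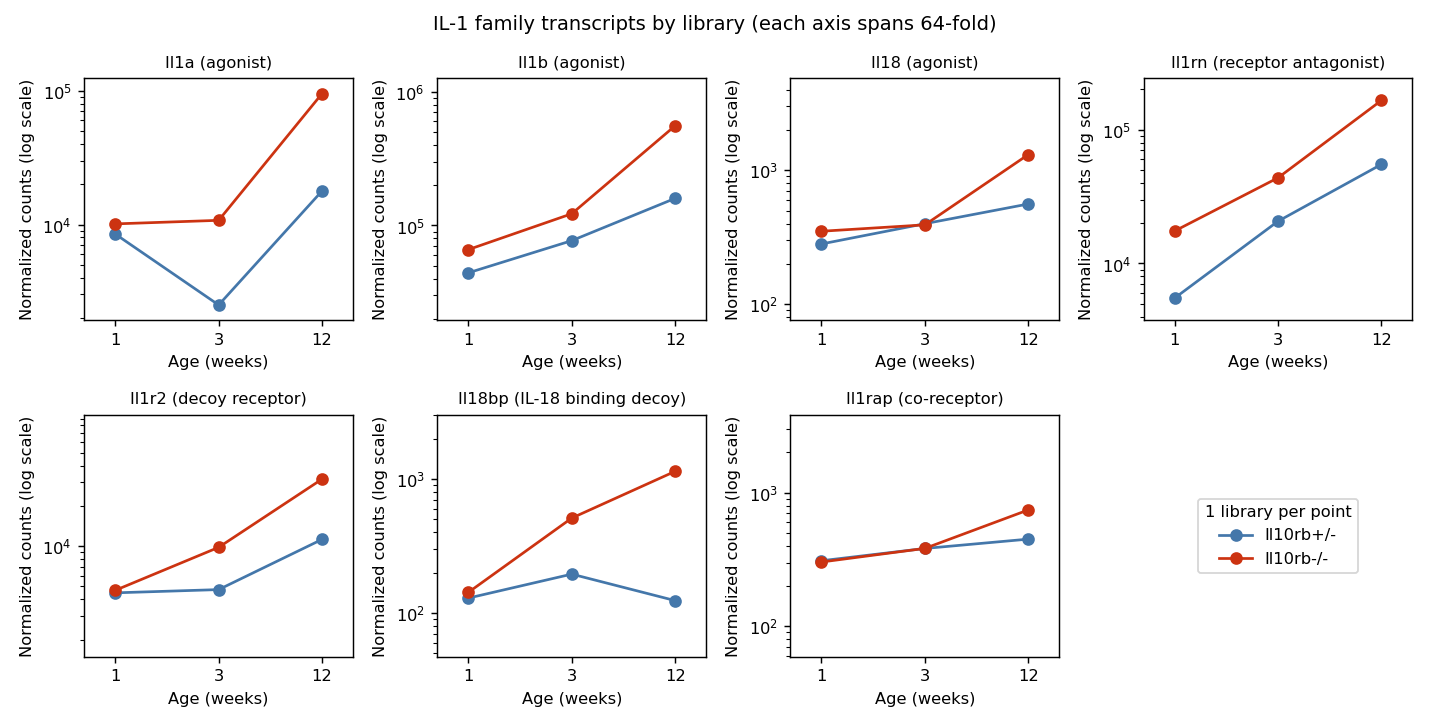
Normalized counts (log scale, each panel spanning the same fold range) of the 7 transcripts against age in weeks, with the 3 ages spaced evenly and 1 library per point, so there are no error bars; blue, Il10rb+/- and red, Il10rb-/-. The 12-week Il10rb-/- library is the highest for every transcript, Il1a dips to 2504 in the 3-week Il10rb+/- library, and Il18bp stays between 123 and 195 in the Il10rb+/- libraries.

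The antagonist *Il1rn* was the only member already over 3-fold higher in *Il10rb-/-* MΦs at 1 week. *Il1rn* (ENSMUSG00000026981, chromosome 2 from 24336853 to 24351494, plus strand) had 5510, 20687 and 55052 normalized counts in *Il10rb+/-* MΦs at 1, 3 and 12 weeks and 17479, 43682 and 165484 in *Il10rb-/-* MΦs. Both genotypes had more at each successive age, and the 1-week *Il10rb-/-* library lay near the 3-week *Il10rb+/-* library. From 1 to 12 weeks the ratio was 9.99-fold in *Il10rb+/-* and 9.47-fold in *Il10rb-/-* MΦs. The 1-week *Il10rb+/-* library was also the lowest in summed monocyte markers, whose part in the *Il1rn* difference was not tested. The log2 genotype ratio was 1.67 (interval 1.62 to 1.71) at 1 week, 1.08 (1.05 to 1.11) at 3 weeks and 1.59 (1.58 to 1.60) at 12 weeks. At 12 weeks the fold was 3.01, just past 3-fold.

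*Il1r2* (ENSMUSG00000026073, chromosome 1 from 40074079 to 40125231, plus strand), the decoy receptor for IL-1, did not separate the genotypes at 1 week. It had 4481, 4738 and 11247 normalized counts in *Il10rb+/-* MΦs at 1, 3 and 12 weeks and 4679, 9807 and 31740 in *Il10rb-/-* MΦs. The controls held nearly the same level at 1 and 3 weeks, whereas the *Il10rb-/-* libraries differed 2.10-fold between these ages. Its log2 genotype ratio was 0.06 (interval -0.00 to 0.13), 1.05 (0.98 to 1.12) and 1.50 (1.47 to 1.52), and the last of these, 2.82-fold, was just short of 3-fold.

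*Il18bp* (ENSMUSG00000070427, chromosome 7 from 102014885 to 102018690, minus strand) had the largest genotype ratio of the 7 genes at 12 weeks. The IL-18 decoy had 129, 195 and 123 normalized counts in *Il10rb+/-* MΦs at 1, 3 and 12 weeks and 142, 511 and 1142 in *Il10rb-/-* MΦs. The controls had no higher level at 12 weeks than at 1 week, at a log2 ratio of -0.06 (interval -0.37 to 0.25), while the *Il10rb-/-* libraries differed 8.03-fold. The log2 genotype ratio was 0.14 (-0.25 to 0.54), 1.39 (1.05 to 1.75) and 3.21 (3.02 to 3.40), the last a 9.26-fold difference from 261 and 1794 reads. *Il18bp* shares 80 exon bases with *Numa1* on the opposite strand, which had 964 and 1086 normalized counts in the 12-week libraries.

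*Il1rap* (ENSMUSG00000022514, chromosome 16 from 26581704 to 26730117, plus strand), the co-receptor for IL-1, varied least, 2.45-fold over the 6 libraries. Its normalized counts were 309, 382 and 449 in *Il10rb+/-* MΦs at 1, 3 and 12 weeks and 303, 383 and 742 in *Il10rb-/-* MΦs. At 1 and 3 weeks the log2 genotype ratios were -0.03 (interval -0.29 to 0.23) and 0.00 (-0.26 to 0.27). At 12 weeks the log2 ratio was 0.73 (0.60 to 0.85). It shares 552 exon bases with the antisense gene *Gm20319*, which had at most 79 reads in a library.

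**Figure D2:**
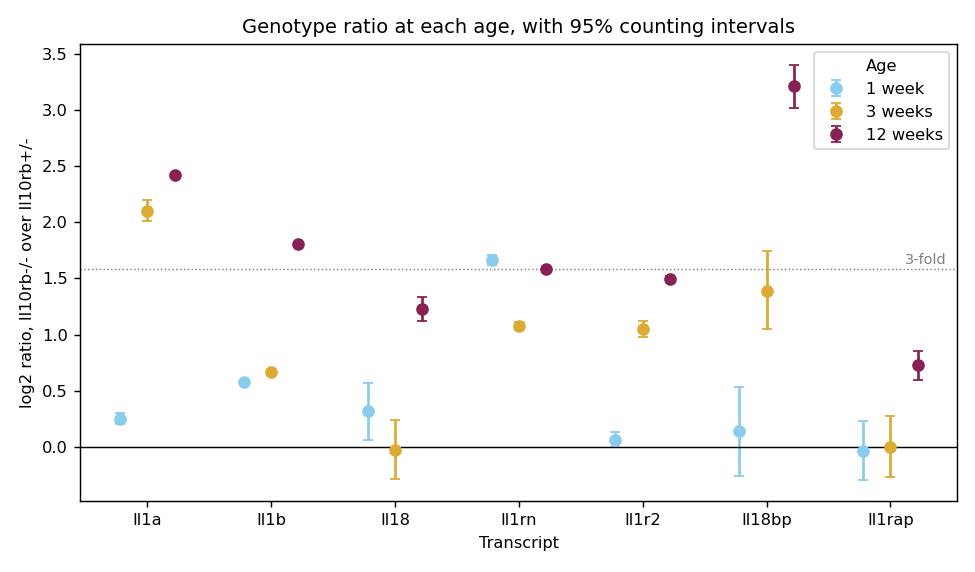
The log2 ratio of Il10rb-/- over Il10rb+/- normalized counts for each transcript at 1, 3 and 12 weeks, with bars for exact 95% counting intervals (hidden by the point where they are short) and a dotted line at 3-fold. At 1 week only Il1rn lies past the line (1.67), at 3 weeks only Il1a (2.10), and at 12 weeks Il18bp (3.21), Il1a (2.42), Il1b (1.80) and, barely, Il1rn (1.59).

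Counted by size, 1 of the 7 genes was over 3-fold higher in the *Il10rb-/-* library at 1 week (*Il1rn*), 1 at 3 weeks (*Il1a*) and 4 at 12 weeks (*Il1a*, *Il1b*, *Il1rn* and *Il18bp*). Of the 11067 genes, 2.75% were over 3-fold higher at 1 week, 1.34% at 3 weeks and 4.03% at 12 weeks. With libraries scaled by total reads, *Il1b* (log2 ratio 1.58) and *Il1rn* (1.37) were under 3-fold at 12 weeks, which leaves *Il1a* and *Il18bp* past it. The median log2 ratio of the 7 genes was 0.25, 1.05 and 1.59 at these ages, beside -0.04, 0.02 and 0.04 over all genes. 5 of the 7, all but *Il18* and *Il1rap*, were higher in *Il10rb-/-* MΦs at all 3 ages, as were 17.4% of all genes. For *Il1r2* and *Il18bp* the counting interval of the 1-week ratio spanned both signs (-0.00 to 0.13 and -0.25 to 0.54). All 7 had their highest value in the 12-week *Il10rb-/-* library, as did 34.3% of all genes, and this library also held the highest neutrophil and dendritic cell marker sums given above. A higher level at each successive age in both genotypes was seen in 5 of the 7, all but *Il1a* and *Il18bp*, and in 11.7% of all genes. From 1 to 12 weeks, 2 of the 7 (*Il1b* and *Il1rn*) were over 3-fold higher in *Il10rb+/-* MΦs, where 9.69% of all genes were. In *Il10rb-/-* MΦs 6 of the 7, all but *Il1rap*, passed 3-fold, where 9.55% of all genes did. These age comparisons use the same libraries as the genotype comparisons.

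The genotype difference across the 3 ages was tested with limma, with age as a term, so that the 3 ages were the only repeats. At an adjusted p under 0.05 it called 0 of 11067 genes, 0% in the higher direction and none of the 7, and even *Il10rb* had an adjusted p of 0.0616. At an unadjusted p under 0.05 limma had 853 genes, 487 of them (4.4% of those tested) higher in *Il10rb-/-* MΦs, and 5 of the 7 were among these. *Il1rn* came closest, with a mean log2 difference of 1.44 (SE 0.23, higher at 3 of 3 ages) and a limma adjusted p of 0.515. *Il1a* differed by 1.59 (SE 0.44), *Il18bp* by 1.58 (SE 0.56), *Il1b* by 1.02 (SE 0.36) and *Il1r2* by 0.87 (SE 0.30), each higher at 3 of 3 ages with a limma adjusted p of 0.627. For *Il18bp* and *Il1r2* the 1-week difference lay within counting error. *Il18* (0.50, SE 0.27) and *Il1rap* (0.23, SE 0.22) did not reach an unadjusted p of 0.05 in limma. Without the 12-week libraries limma called 61 genes, 51 of them higher (0.461% of those tested), among them *Il1rn* at a log2 difference of 1.37 and an adjusted p of 0.0121. The other differences were then smaller: 1.18 for *Il1a*, 0.76 for *Il18bp*, 0.62 for *Il1b*, 0.56 for *Il1r2* and 0.14 for *Il18*. *Il1rap* turned to -0.015. With another age left out *Il1rn* did not pass, at a limma adjusted p of 0.418 without the 1-week libraries and 0.427 without the 3-week libraries. In each such fit the remaining ages were the only repeats.

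With age, 3 of the 7 genes were called higher at 12 weeks than at 1 week in the same limma model. The 2 genotypes were the only repeats of an age. The 1-week libraries were pools and the 12-week libraries single mice. The 12-week libraries were also the deepest, at 40754971 and 35266607 reads on listed genes. Age thus cannot be told apart from pooling and depth. *Il1rn* rose by a log2 difference of 3.28 (SE 0.28, limma adjusted p = 0.0114), *Il1b* by 2.46 (SE 0.44, 0.0381) and *Il1r2* by 2.04 (SE 0.37, 0.0393), each higher in both genotypes. Over all genes 802 passed, 555 higher (5.01% of those tested) and 247 lower. With libraries scaled by total reads 2476 passed, 454 higher and 2022 lower, since this scaling moved the median age difference of all genes from 0.02 to -0.47. The limma adjusted p of the other four genes was 0.0615 for *Il18* (log2 difference 1.45), 0.0678 for *Il1a* (2.15), 0.0920 for *Il1rap* (0.91) and 0.211 for *Il18bp* (1.47). A fit without 1 library leaves a lone library at that age, which holds no information on the spread there. Whether a gene passes such a fit is therefore no measure of how it varies at that age. Without each of the 6 libraries in turn the log2 age difference of *Il1rn* lay between 3.12 and 3.45. *Il1b* passed without either 12-week library but not without either 1-week or either 3-week library, where its limma adjusted p was 0.0556 to 0.165, and *Il1r2* was lost without the 1-week *Il10rb-/-* library, at 0.108. Without the 12-week *Il10rb-/-* library, which stood apart in its markers, the log2 age differences were 3.17 for *Il1rn*, 1.87 for *Il1b* and 1.57 for *Il1r2*. *Il1a* and *Il18* also passed there, at 1.53 and 0.90, in a fit that called 1456 genes higher (13.2% of those tested). Without the 12-week *Il10rb+/-* library all 7 passed in limma, in a fit that called 2096 genes higher (18.9%). *Il1a* also passed without the 1-week *Il10rb+/-* library, at 3.16, where 3.13% of genes were called higher. The share called higher was 2.28% without the 1-week *Il10rb-/-* library, 3.7% without the 3-week *Il10rb+/-* library and 3.65% without the 3-week *Il10rb-/-* library. The median age difference of the 7 genes was 2.04.

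Agonists and their blockers were set against each other within each library, on normalized counts per kb of exon, where the scaling between libraries cancels. The exon lengths join all annotated isoforms (5535 bases for *Il1rn*, 3026 for *Il18bp*), so the size of a ratio depends on them, whereas the order of the libraries does not for a ratio of 2 genes. *Il1a* plus *Il1b* exceeded *Il1rn* by 27.6, 11.1 and 9.32 times in *Il10rb+/-* MΦs at 1, 3 and 12 weeks, and by 12.6, 8.82 and 11.4 times in *Il10rb-/-* MΦs. Without division by length these were 9.57, 3.84 and 3.22 times and 4.36, 3.05 and 3.94 times. The 1-week control library was thus far above the other 5, which lay between 8.82 and 12.6, and was also the lowest in summed monocyte markers. The *Il10rb-/-* library had a 2.20-fold lower ratio than the control at 1 week, 1.26-fold lower at 3 weeks and 1.22-fold higher at 12 weeks. Across the first 12 weeks the ratio in controls was 2.97-fold lower at the end, while in *Il10rb-/-* MΦs it was 1.11-fold lower. Agonist and antagonist were both far higher in the 12-week *Il10rb-/-* library, at 291864 normalized counts per kb for *Il1b* and 29898 for *Il1rn*, with a ratio of *Il1b* to *Il1rn* of 9.76 beside 8.41 in the control. No library has a replicate, so the spread of such a ratio between mice is unknown.

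The decoy receptor gave another order. *Il1a* plus *Il1b* exceeded *Il1r2* per kb by 11.7, 16.8 and 15.7 times in *Il10rb+/-* MΦs and by 16.2, 13.5 and 20.4 times in *Il10rb-/-* MΦs at 1, 3 and 12 weeks. The genotype with the higher ratio changed at each age. The whole range was narrower than that over *Il1rn*, which the 1-week *Il10rb+/-* library alone extended to 27.6. Without that library the ratio lay between 8.82 and 12.6 over *Il1rn* and between 13.5 and 20.4 over *Il1r2*, so neither range was clearly narrower. Per kb, *Il1rn* was 0.424 times *Il1r2* in the 1-week *Il10rb+/-* library, and 1.29 times in the 1-week *Il10rb-/-* library. In the later 4 libraries *Il1rn* was 1.51 to 1.80 times *Il1r2*. Without division by length the antagonist exceeded the decoy in every library, by 1.23 times in the 1-week *Il10rb+/-* library and 3.74 to 5.21 times in the others. With both blockers summed, the agonist to blocker ratio per kb lay between 5.34 in the 3-week *Il10rb-/-* library and 8.23 in the 1-week *Il10rb+/-* library.

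For IL-18 the decoy differed between genotypes more than the agonist. *Il18* exceeded *Il18bp* per kb by 6.41, 6.02 and 13.3 times in *Il10rb+/-* MΦs at 1, 3 and 12 weeks and by 7.23, 2.25 and 3.37 times in *Il10rb-/-* MΦs. Without division by length the values were 2.18, 2.05 and 4.54 times and 2.46, 0.766 and 1.15 times, so that which of the pair was higher turned in the 3-week *Il10rb-/-* library. The exact 95% counting intervals of the pair at 1 week overlapped (5.19 to 7.95 and 5.67 to 9.28). At 3 weeks they did not (4.58 to 7.96 and 1.98 to 2.55), nor at 12 weeks (11.6 to 15.3 and 3.16 to 3.59). Such intervals cover counting error only, so they set single libraries apart and not the genotypes. The ratio was 2.68-fold lower in *Il10rb-/-* MΦs at 3 weeks and 3.95-fold lower at 12 weeks. Between the agonists, *Il1a* was 0.185 times *Il1b* per kb in the 1-week control, 0.0314 times in the 3-week control and 0.0848 to 0.165 times in the other 4 libraries.

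**Figure D3:**
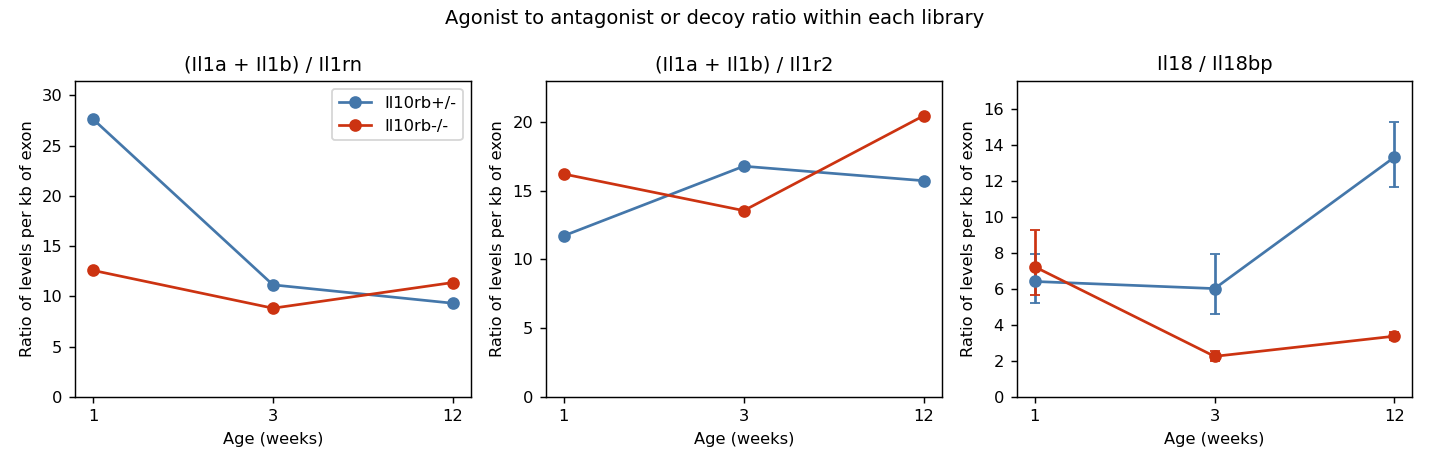
Ratios of levels per kb of exon within each library against age in weeks (evenly spaced, 1 library per point); bars on Il18 over Il18bp are exact 95% counting intervals, and the sums in the other panels carry none. The ratio of Il1a plus Il1b to Il1rn is 27.6 in the 1-week Il10rb+/- library and 8.82 to 12.6 in all others. The counting intervals of Il18 over Il18bp do not overlap between the libraries of the same age at 3 and 12 weeks.

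Levels of the 7 genes can be ordered only per kb. By the median over the 6 libraries the order was *Il1b* at 52277 normalized counts per kb, *Il1rn* at 5815, *Il1a* at 5282, *Il1r2* at 3812, *Il18* at 383, *Il18bp* at 55.7 and *Il1rap* at 33.7. *Il1rn*, *Il1a* and *Il1r2* overlapped widely over the libraries (995 to 29898, 1269 to 48246 and 2348 to 16635), so their order was not the same in each. *Il1b* (23213 to 291864) was above all others in every library. The exon length counted for *Il1rap*, 11360 bases, joins all annotated isoforms, so its value per kb is low where only shorter ones are made.

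Profiles over the 6 libraries were compared as the root mean square (RMS) difference of log2 values, each centred on its own mean. Among the 7 genes *Il1b* and *Il1r2* were nearest, at 0.27. Outside the 7, the nearest to *Il1b* was *Foxp4* (RMS difference 0.07), followed by *Smox* (0.15) and *Uck2* (0.16). The nearest to *Il1a* were *Gm14023* (0.12), the gene that overlaps it, *Rims2* (0.21) and *Ccr9* (0.35). *Il18bp* was nearest to *Zbp1* (0.22), *Igtp* (0.24) and *Nlrc5* (0.26), which are known as interferon-induced genes, and had no member nearer than 0.71. *Il1rn* was nearest to *Agpat4* (0.23), *Bcl11b* (0.27) and *Cish* (0.27), *Il1r2* to *Hsh2d* (0.16), *Ralgds* (0.16) and *Exoc3l4* (0.18), *Il18* to *Frat2* (0.11), *Hspa13* (0.12) and *Ttc39b* (0.14), and *Il1rap* to *Myo1h* (0.07) and *Nr1h2* (0.07). With 6 libraries and 11067 genes near neighbours are common, and the 12-week *Il10rb-/-* library weighs on every profile.

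The rest of the pathway was sparse in ligands and receptors. Of 6 other IL-1 family ligands 3 were in the table and 1 reached 50 normalized counts, *Il1f9* (IL-36γ), an agonist of the IL-36 receptor. *Il1f9* had 8, 1 and 21 reads in *Il10rb+/-* MΦs at 1, 3 and 12 weeks and 3, 16 and 714 in *Il10rb-/-* MΦs, and was 45.8-fold higher at 12 weeks (log2 interval 4.89 to 6.22). Of 8 other receptors 6 were in the table and 5 reached 50 normalized counts, and limma called 0 of them by genotype and 0 by age. The IL-36 receptor *Il1rl2* had the highest mean of the list, 569 normalized counts (not per length), with log2 genotype ratios of -0.56, -0.16 and -0.77 at 1, 3 and 12 weeks. *Il1r1*, the signalling receptor for IL-1, averaged 91.0 normalized counts, with log2 genotype ratios of 0.98, -0.44 and 0.62. *Il18rap*, the IL-18 co-receptor, had 54.5, 102 and 33.1 normalized counts in *Il10rb+/-* and 24.0, 37.8 and 269 in *Il10rb-/-* MΦs. *Il1rl1*, the IL-33 receptor, had 97.2, 112 and 88.4 normalized counts in *Il10rb+/-* MΦs, and in *Il10rb-/-* MΦs 21.0, 68.6 and, from 1 read, 0.637 (log2 ratio at 12 weeks -7.12, interval -12.4 to -4.62).

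Signalling and maturation genes were expressed throughout and differed less. All 13 signalling genes reached 50 normalized counts, with a median log2 genotype difference across ages of 0.11 beside 0.00 over all genes, and limma called 0 by genotype and 1 with age. That gene was *Irak3*, an inhibitory kinase-like protein of the IRAK family, which rose from 1 to 12 weeks by a log2 difference of 2.28 (SE 0.34, limma adjusted p = 0.0272). *Irak2* and *Peli1*, an IRAK family member and a ubiquitin ligase of the receptor complex, had the highest means of the list, 4950 and 4374 normalized counts (not per length). *Irak4* varied most between ages, with log2 genotype ratios of -1.84, 1.15 and 1.04, followed by *Tab3* at -0.99, 0.25 and 0.99. Of the 13 genes of maturation and release, all reached 50 normalized counts, with a median genotype difference of 0.11, and limma called 0 by genotype and 3 with age. The inflammatory caspase *Casp4* rose by 1.43 (SE 0.20, limma adjusted p = 0.0247), the calpain subunit *Capn2* rose by 1.62 (SE 0.32, 0.0461) and the inflammasome sensor *Nlrc4* fell by 1.57 (SE 0.19, 0.0195). *Nlrp3*, the sensor that drives cleavage of the IL-1β precursor, had log2 genotype ratios of 0.14, 0.55 and 0.90, and *Gsdmd*, the pore protein that releases IL-1β, of 0.33, 0.46 and 1.40. *Casp1*, which makes the cut, had ratios of -0.54, 0.25 and 0.62, none as large as that of *Il1b* at the same age.

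**Figure D4:**
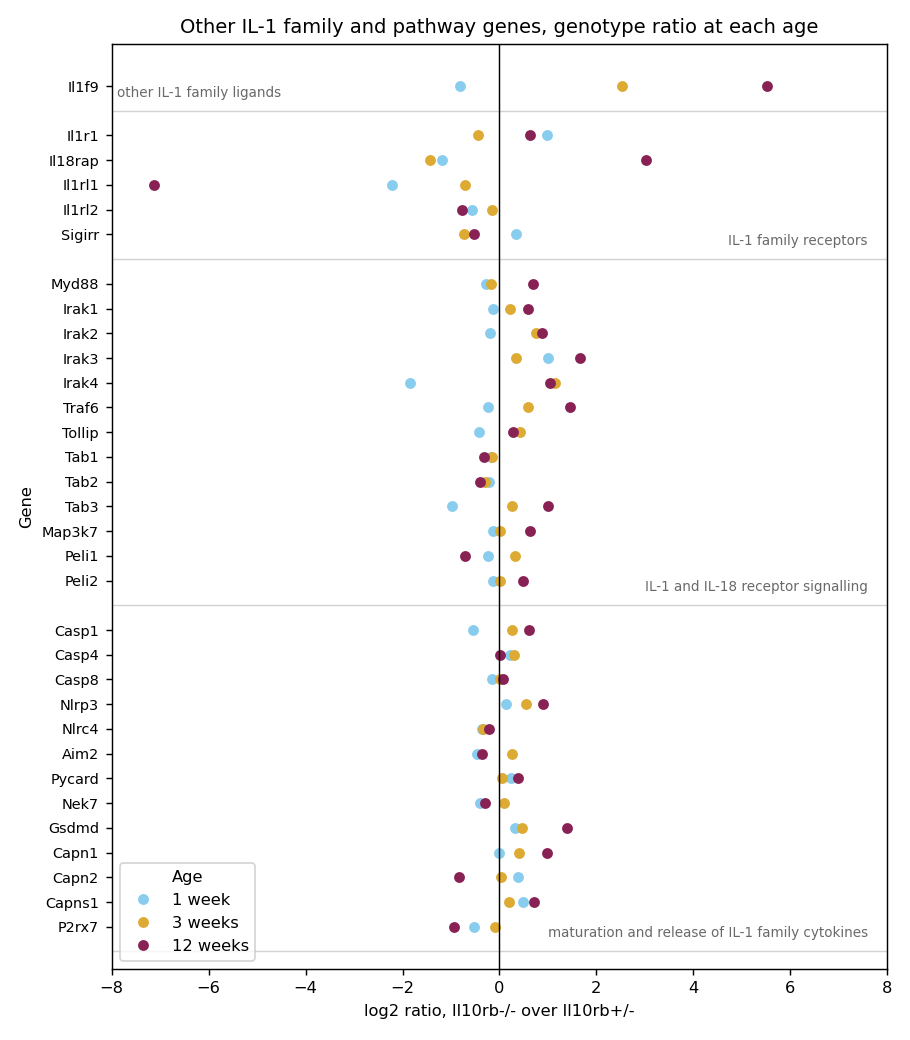
The log2 ratio of Il10rb-/- over Il10rb+/- for the other IL-1 family and pathway genes that reached 50 normalized counts, at 1, 3 and 12 weeks, 1 pair of libraries per point and no error bars, grouped by list with each list's name at its foot. Most signalling and maturation genes lie within 1 log2 unit of 0, and the widest points are Il1f9 (5.52) and Il1rl1 (-7.12, from 1 read) at 12 weeks.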

How the data were processed

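RNA from sorted colonic MΦs was sequenced, and the label of each sample gave its genotype and age. Per the labels and methods, the authors ran Trim Galore, TopHat (mm10), HTSeq and DESeq; versions, annotation and strand setting are not given in the sources used here. The deposited values are a signal, normalized counts with 0 shown as 1, so no count model was run. All values other than 1 were whole multiples (within 1% of a step, or rounding error for high values) of 1 step per library (0.473 to 2.43), from which reads were read back for depth and Clopper-Pearson 95% intervals. Genes at 50 or more in at least 1 library entered limma 3.58.1 (R 4.3.3) on log2(value + 1), a scale that understates changes of low genes, with genotype and age terms, an intensity trend and p-values adjusted by Benjamini-Hochberg. As each library is 1 mouse or pool, p-values measure how the genotype effect varies between ages, or the age effect between genotypes. Levels per kb used merged GENCODE exons of GRCm38 (14085 genes found), and promoters came from RefSeq. Python 3.11.15 ran the rest, with pandas 2.3.3, scipy 1.17.1, numpy 2.4.6 and matplotlib 3.10.9. Members and gene lists were chosen with earlier results of these data known. Other genes named are the 3 nearest profiles of each member and, of each list, those called by genotype or else the 2 with the highest mean and the 2 with the widest spread of genotype ratios; *Irak3*, *Casp4* and *Nlrc4* were named after their age test was seen. 1 gene that this rule names is not reported here. Alternatives were another pseudocount, no filter, TMM and total-read scaling, no trend, no age term and leaving out libraries. The steps were tested on simulated data.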

Additional observations from a re-analysis of the deposited data

Results flagged for a closer look

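Genotype ratios of opposite sign at different ages, each with a counting interval away from 0, were found in 0 of the 7 members, in 12 of the 32 other pathway genes that reached 50 normalized counts, and in 25.8% of all genes. With 1 library per group, the difference between ages was not tested. Of the pathway genes named in the report, 7 were among them. The log2 ratio of *Il10rb-/-* over *Il10rb+/-* at 1, 3 and 12 weeks was -1.84, 1.15 and 1.04 for *Irak4*, -0.21, 0.76 and 0.88 for *Irak2*, and -0.54, 0.25 and 0.62 for *Casp1*. It was -1.19, -1.43 and 3.02 for *Il18rap* and -0.23, 0.32 and -0.70 for *Peli1*. *Tab3* had -0.99 at 1 week and 0.99 at 12 weeks, and *Capn2* had 0.38 at 1 week and -0.84 at 12 weeks. The others were *Traf6*, *Myd88*, *Tollip*, *Irak1* and *Aim2*, named after their values were seen.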

How the results depend on the processing

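The count of genes called by genotype in limma, 0, became 1 with a pseudocount of 10 and 1 without the age term, in both cases *Il10rb* itself. Without the libraries of 1 age it ranged from 3 to 61, and the 3 genes called without the 3-week libraries were *Il10rb*, *Sdc1* and *F10*, named after their values were seen. The count called with age, 802, became 2476 with total-read scaling and 83 without the mean-variance trend, and ranged from 267 to 3909 when 1 library was left out, an alternative chosen after the data were seen. The lone library of an age is then assumed to vary like the others. *Il1rap* turned from a log2 genotype difference of 0.23 to -0.015 without the 12-week libraries, in a range of -0.015 to 0.36 when an age was left out. For the age difference, *Il1b* was lost without a filter (limma adjusted p = 0.0720) and *Il1b* and *Il1r2* without the trend (0.0706 and 0.0888). With *Il1b* alone over *Il1rn*, the log2 genotype difference of the ratio was -0.41 at 3 weeks in place of -0.34, and 0.22 at 12 weeks in place of 0.29. Total-read scaling moved every log2 genotype ratio by -0.04 at 3 weeks and -0.22 at 12 weeks, which put *Il1rn* (1.37) and *Il1b* (1.58) under 3-fold at 12 weeks; TMM moved none by more than 0.03. Of the members' genotype tests under the alternatives, 61 kept direction and side of the threshold, 1 reversed (*Il1rap*) and 1 newly passed (*Il1rn*). Of their age tests 62 kept both, 8 were lost and 7 newly passed. A count model was planned only for the case of raw counts and was not run, since the deposited values are normalized counts. Depth limits *Il18*, *Il1rap* and *Il18bp* most, with 80 to 164 reads in the 3-week control.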
